A study of Rattus norvegicus with 8 samples.

Results

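The genes described here carry iron into, through and out of the absorptive cell of the small intestine, store it, and sense it. The set was chosen with earlier results of these data known. Its 10 members, listed by symbol, are Slc11a2, Cybrd1, Slc40a1, Heph, Tfrc, Fth1, Ftl1, Hmox1, Ireb2 and Epas1. Each was taken as the locus whose name in the deposited gene table is exactly that symbol, and where 2 loci shared a symbol, the one with more fragments. All 10 were found among the 52753 loci of the table, and all 10 passed the filter on low counts that left 16941 loci.

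The samples are whole small intestine of Sprague Dawley rats at postnatal day 21, in 4 libraries from rats with cystic fibrosis (CF) and 4 from wild-type (WT) rats. CF is the inherited disease in which the anion channel CFTR is lost, and the labels do not name the allele. In both groups the gut was trimmed, rinsed with saline that held dithiothreitol, and sequenced as stranded mRNA. The libraries are numbered 0 to 3 within a group, and the labels do not tie them to separate animals, so each p-value measures only the spread between libraries. Depth was 18621671 to 20890031 assigned fragments per library in CF and 15255364 to 20812425 in WT. Values for 1 gene across libraries are given in CPM (fragments scaled to library size), and levels of different genes are compared in FPKM, which also divides by transcript length.

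Dietary iron is reduced at the brush border of the enterocyte by the ferrireductase CYBRD1 and imported by SLC11A2, the divalent metal transporter. Iron that is not needed at once is held in ferritin, a shell of heavy (Fth1) and light (Ftl1) chains, and the rest leaves through the exporter ferroportin (Slc40a1) with the ferroxidase hephaestin (Heph). Iron regulatory proteins, one of them encoded by Ireb2, bind RNA hairpins in several of these transcripts when iron is scarce, and HIF-2 alpha (Epas1) drives transcription of the absorptive genes when iron or oxygen is low.

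Levels per transcript length spread widely within the set. Fth1 was the most abundant member, at 1881 ± 879 FPKM in CF and 2412 ± 506 FPKM in WT (SD, n = 4 each). Heph, the membrane-bound oxidase that works beside the exporter, followed at 56.6 ± 14.4 FPKM in CF and 53.4 ± 10.2 FPKM in WT. Tfrc, Slc11a2, Epas1 and Ireb2 averaged 36.0, 24.4, 24.3 and 20.1 FPKM over the 8 libraries, and Hmox1 and Cybrd1 averaged 16.9 and 13.3 FPKM. The exporter Slc40a1 was low at 4.26 ± 2.91 FPKM in CF and 6.31 ± 0.898 FPKM in WT. From Heph down to Slc40a1, the range of each gene over the libraries overlapped that of the next. Within every library, however, Heph was above Tfrc, Tfrc above Slc11a2, and Cybrd1 above Slc40a1. From Slc11a2 through Epas1, Ireb2 and Hmox1 to Cybrd1, the order of neighbours changed between libraries and is not resolved. The lowest entry was the locus named Ftl1, which needs a separate account.

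**Figure D1:**
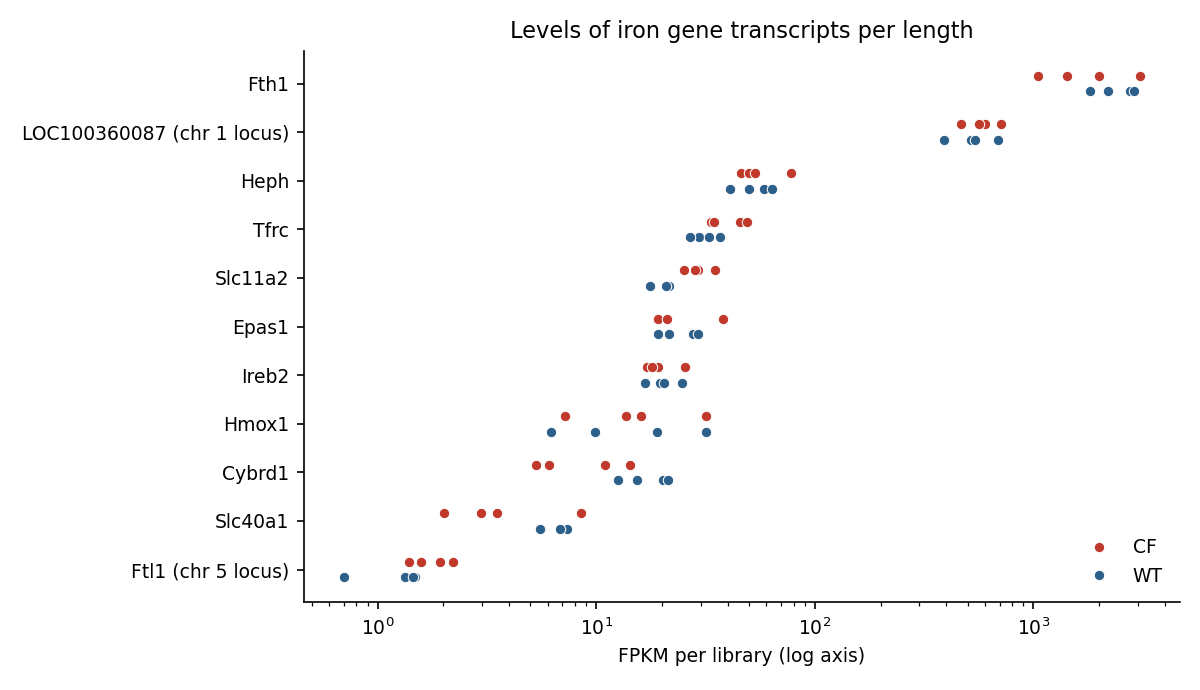
FPKM of the 10 genes and of the chromosome 1 locus LOC100360087 in each library, on a log axis, with CF libraries in red above WT libraries in blue. Fth1 lies between 1053 and 3069 FPKM, above every other entry, and the locus named Ftl1 lies between 0.699 and 2.21 FPKM.

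The symbol Ftl1 did not mark the abundant light-chain transcript in this table. The locus with that exact name lies on chromosome 5 (152322794 to 152327032, Rnor_6.0), overlaps Cd52 and precedes Ubxn11. It held 145 fragments over the CF libraries and 94.8 over the WT libraries. In the RefSeq table of another build (GRCr8), the gene between Cd52 and Ubxn11 is LOC100360087, with Ftl1 as a synonym, and the gene Ftl1 itself lies on chromosome 1 between Gys1 and Bax. The deposited table has a locus named AC128792.1,LOC100360087 on chromosome 1 (101427194 to 101450071), which overlaps Gys1 and precedes Bax. That locus was at 584 ± 100.4 FPKM in CF and 534 ± 122 FPKM in WT, the level of an abundant transcript. RefSeq also lists 21 further Ftl1-like genes and pseudogenes and 6 for Fth1, so fragments of both chains could have been shared between near-identical copies. Values of both light-chain loci are therefore given, and the chromosome 1 locus was added after its values were seen.

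A stretch near the 5′ end of the transcript of the chromosome 5 copy is shown because iron regulatory proteins recognise ferritin mRNA by a hairpin there, with the letters CAGTG in its loop. The RefSeq window for LOC100360087 (GRCr8, plus strand, chr5:151606530-151606545) ends with these letters, where the capitals mark CAGTG.
LOC100360087: tcttgcttcaaCAGTG
A C, any 5 bases and then CAGTG were searched together on the transcribed strand of the 50 bases after each start. In LOC100360087 the pattern begins at position 40 after the start. It was found in 1.6% of 33469 windows and, among the members, in none of the 8 windows that RefSeq gives for 7 of them. Fth1, Ftl1 and Hmox1 have no entry in that promoter table.

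None of the 10 genes passed the test between CF and WT at an adjusted p of 0.05 (edgeR's quasi-likelihood test, adjusted by Benjamini-Hochberg over all 16941 loci), where 0.165% of all loci did, 0.136% with higher and 0.0295% with lower values in CF. At an unadjusted p of 0.05, 2 of the 10 passed, Slc11a2 with a higher and Cybrd1 with a lower mean in CF, beside 15.1% of all loci, 7.94% with higher and 7.21% with lower values in CF. DESeq2, which called 619 loci in all, called these same 2 genes, limma-voom called neither, and limma on log2 FPKM called neither. Means were higher in CF for 6 members, beside 49.2% of all loci, and lower for 4, with a median log2 fold change of 0.03 against −0.00491 over all loci tested. Groups did not overlap in 2 members, Slc11a2 and the chromosome 5 Ftl1 locus, both higher in CF, beside 8.78% of all loci (4.86% higher and 3.91% lower in CF).

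**Figure D2:**
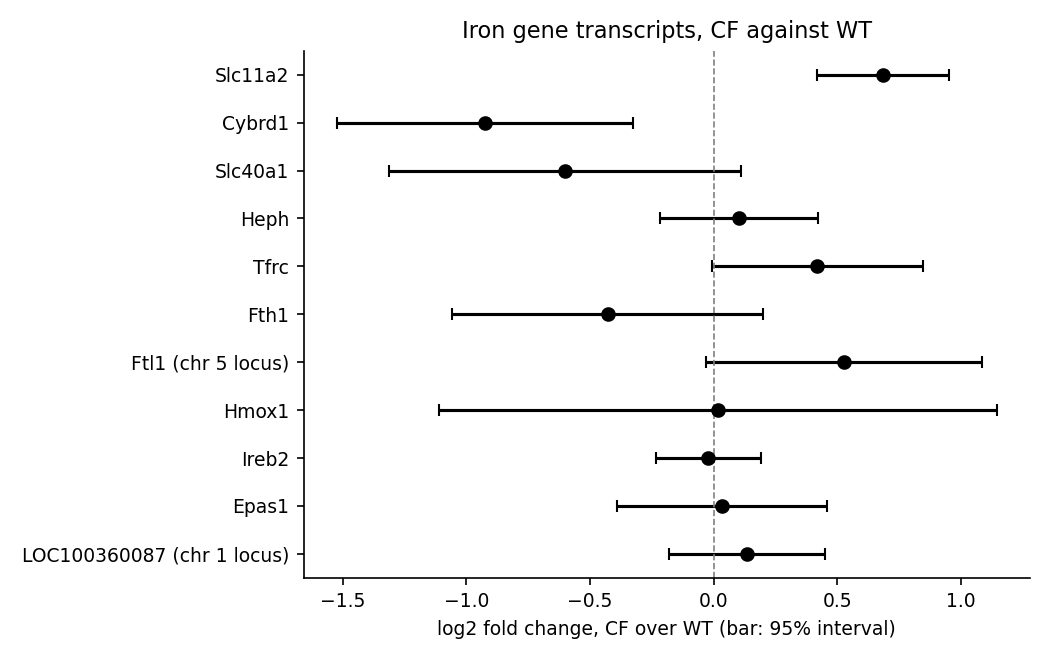
Log2 fold change of CF over WT for each gene, with its 95% interval from the fit across all loci. The intervals of Slc11a2 (0.42 to 0.95) and Cybrd1 (−1.52 to −0.33) exclude 0, and the other 8 members include it.

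Slc11a2, the apical importer of ferrous iron (chromosome 7, in a span from 142025720 to 142180998 that also covers Letmd1, Csrnp2 and Tfcp2), came closest to the threshold. It was at 119, 115, 95.9 and 139.7 CPM in CF libraries 0, 1, 2 and 3, against 70.4, 77.9, 68.0 and 75.4 CPM in WT libraries 0 to 3. Every CF library lay above every WT library, and the WT libraries lay close together. The means were 117 ± 18.0 CPM in CF gut and 72.9 ± 4.51 CPM in WT gut, a 1.61-fold difference (log2 fold change 0.69, SE 0.12, adjusted p = 0.0589), and its p-value ranked 47 of 16941. It was past the threshold with DESeq2 (adjusted p = 9.99e-05), with no low-count filter (0.000168), without CF library 0 (0.0483) and without CF library 2 (0.0279), which are 4 of 16 alternative fits. With 1 library left out, the edgeR adjusted p ran from 0.0279 to 0.213. By limma on log2 FPKM, with 1 or 0.1 added, the adjusted p was 0.270 and 0.281. Without CF libraries 0 and 3, its highest, the log2 fold change was 0.53 (edgeR adjusted p = 0.115). In FPKM the groups were also separate, at 25.2 to 35.1 in CF and 17.6 to 21.6 in WT. A second locus named Slc11a2 in the same span, XLOC_044447, held only 4 to 24 fragments per CF library and 9 to 22 per WT library.

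RefSeq gives Slc11a2 a pair of start sites. Their upstream sequences are shown because the locus value may sum transcripts from either one, which was not checked. Each run is the 250 bases before a start on the minus strand of GRCr8, the first for the upstream start (chr7:133418940-133419189) and the second for the downstream start (chr7:133417789-133418038). Capitals mark TATATA in the first and CACGC, the reverse complement of the HIF core GCGTG, in the second.
Slc11a2 upstream start: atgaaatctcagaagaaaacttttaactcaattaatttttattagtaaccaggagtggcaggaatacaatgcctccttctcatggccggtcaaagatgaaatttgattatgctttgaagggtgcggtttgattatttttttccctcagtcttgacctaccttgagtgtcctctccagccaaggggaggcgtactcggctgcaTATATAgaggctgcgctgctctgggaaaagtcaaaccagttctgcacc
Slc11a2 downstream start: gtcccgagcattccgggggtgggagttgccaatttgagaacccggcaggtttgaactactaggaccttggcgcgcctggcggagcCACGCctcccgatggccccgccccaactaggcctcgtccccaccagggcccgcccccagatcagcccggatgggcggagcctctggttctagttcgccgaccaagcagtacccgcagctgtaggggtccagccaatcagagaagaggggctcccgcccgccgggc
TATATA starts 48 bases before the upstream start and occurs in 5.45% of all windows. Neither HIF core, ACGTG or GCGTG, was found on either strand before the upstream start, and the single match before the downstream start begins at position −165, where 36.7% of all windows hold at least 1. The antioxidant element TGACNNNGC, present in 10.1% of windows, was in no member window.

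Cybrd1, the brush-border ferrireductase that feeds the importer (chromosome 3, 57718363 to 57747393), lay on the other side. It was at 30.9, 60.3, 47.7 and 29.5 CPM in CF libraries 0 to 3, against 53.9, 73.5, 94.0 and 98.02 CPM in WT libraries 0 to 3. CF libraries 0, 2 and 3 were below every WT library, and CF library 1 was above WT library 0. Means were 42.1 ± 14.7 CPM in CF gut and 79.9 ± 20.4 CPM in WT gut (log2 fold change −0.93, SE 0.27, adjusted p = 0.176 by edgeR's quasi-likelihood test). DESeq2 gave an adjusted p of 0.0243, and no other alternative fit passed the threshold. Without CF libraries 0 and 3 the log2 fold change was −0.56.

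The Cybrd1 upstream region holds 1 HIF core on its far edge, at position −241, where 36.7% of all windows hold at least 1. Heph, whose window is not shown, has a CACGC at position −81. The Cybrd1 region is shown with its match in capitals (GRCr8, plus strand, chr3:76342343-76342592).
Cybrd1: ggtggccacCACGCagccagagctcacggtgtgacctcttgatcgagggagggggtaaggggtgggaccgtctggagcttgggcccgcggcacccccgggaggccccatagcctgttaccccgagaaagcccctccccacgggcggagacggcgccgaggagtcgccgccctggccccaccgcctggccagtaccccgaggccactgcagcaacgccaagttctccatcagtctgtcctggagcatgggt

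Slc40a1, the only known cellular exporter of iron (chromosome 9, 52894289 to 52913271), varied much more among CF than among WT libraries. It was at 6.12, 21.7, 11.4 and 10.5 CPM in CF libraries 0 to 3 and at 19.8, 16.1, 19.3 and 20.1 CPM in WT libraries 0 to 3. CF library 1 was the highest of all 8, while the other CF libraries were below every WT library. The coefficient of variation was 53.2% in CF and 9.75% in WT, and the log2 fold change of −0.60 (SE 0.32, edgeR adjusted p = 0.406) was within that spread. Without CF library 1 it was −1.01 (adjusted p = 0.106), without CF library 0 it was −0.37 (adjusted p = 0.491), and without CF libraries 0 and 3 it was −0.18 (adjusted p = 0.808). Heph (chromosome X, 65411160 to 65658557) overlapped between the groups, at 233 to 346 CPM in CF gut and 237 to 309.8 CPM in WT gut (log2 fold change 0.10, 95% interval −0.22 to 0.42).

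**Figure D3:**
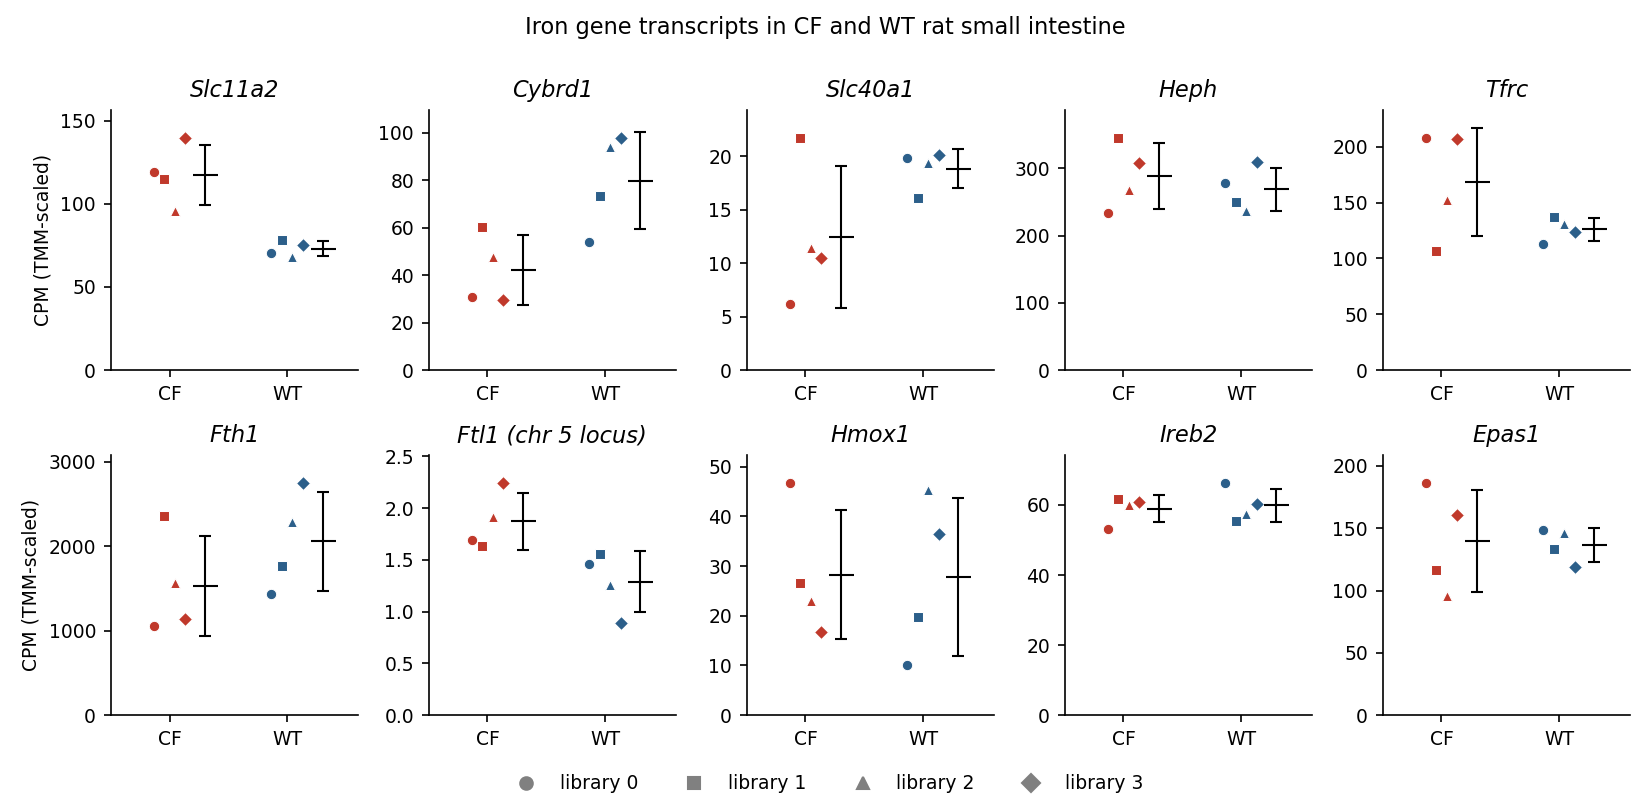
CPM of each of the 10 genes in the 4 CF (red) and 4 WT (blue) libraries, with the marker shape giving the library number and the black bar the mean ± SD. Slc11a2 sits at 95.9 to 139.7 CPM in CF, above the 68.0 to 77.9 CPM of WT, and Cybrd1, Slc40a1 and Fth1 are highest within CF in library 1.

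Import over export was compared within each library, which removes the scaling between libraries. The FPKM ratio of Slc11a2 to Slc40a1 was 17.4, 3.43, 7.13 and 9.50 in CF libraries 0 to 3, against 2.95, 3.16, 3.17 and 3.06 in WT libraries 0 to 3. The WT ratios were nearly equal, and each CF ratio was above all of them, CF library 1 only just. The mean log2 ratio was 2.996 ± 0.974 in CF and 1.62 ± 0.04997 in WT, a 2.59-fold difference. By exact permutation of the 8 libraries, two-sided p was 0.0286, the smallest that 4 against 4 allows, and 0.0857 after Benjamini-Hochberg adjustment over the 3 ratios compared, so it did not pass. The difference was 0.995 on the log2 scale without CF library 0 and 1.78 without CF library 1, against 1.37 with all libraries.

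**Figure D4:**
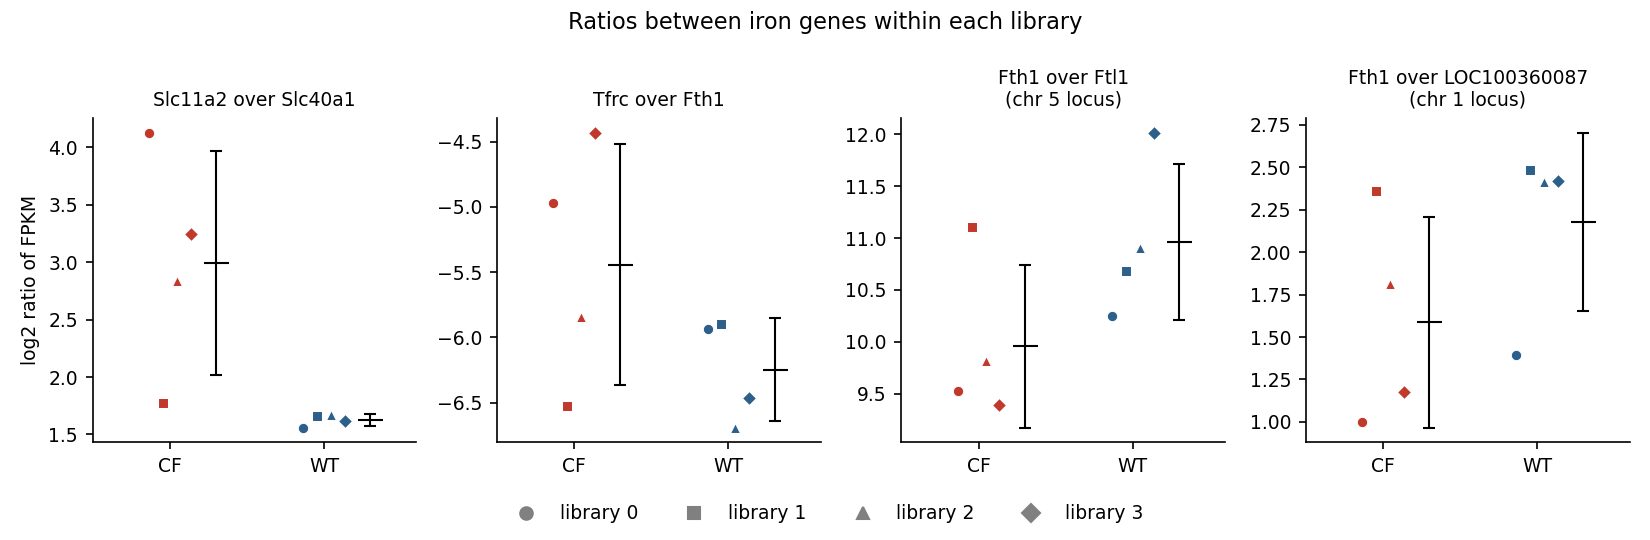
Log2 ratio of FPKM between pairs of iron genes within each CF (red) and WT (blue) library, with mean ± SD in black; each panel has its own axis, which does not start at 0. The Slc11a2 to Slc40a1 ratio is the one whose groups are separate, with WT libraries between 1.56 and 1.67 and CF libraries between 1.78 and 4.12.

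Tfrc, the transferrin receptor that takes up iron from blood and is high in dividing cells (chromosome 11, 71397382 to 71419223), was at 208, 107, 153 and 207 CPM in CF libraries 0 to 3 and at 113, 137, 131 and 123 CPM in WT libraries 0 to 3. CF libraries 0, 2 and 3 were above all WT libraries and CF library 1 was below them. The log2 fold change was 0.42 (SE 0.19, edgeR adjusted p = 0.336), and 0.0426 without CF libraries 0 and 3. Summed CPM of 9 markers of proliferating crypt cells was 1235 to 1552 in CF and 1098 to 1345 in WT. The sum was highest in CF library 0 and lowest within CF in library 1. Its largest part was Olfm4, at a mean of 579 CPM in CF and 473 CPM in WT. Of the 9, 6 had higher and 3 lower means in CF, beside 49.2% of all loci with higher means. By edgeR 2 were under an unadjusted p of 0.05 with higher and 1 with lower values in CF, beside 7.94% and 7.21% of all loci. The part of these cells in the Tfrc values was not tested.

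The Tfrc upstream region is shown because it is the one member window with the core ACGTG, at position −31, beside a CACGC at −93, both in capitals (GRCr8, minus strand, chr11:81690319-81690568). ACGTG is present on either strand in 16.6% of all windows and GCGTG in 25.9%.
Tfrc: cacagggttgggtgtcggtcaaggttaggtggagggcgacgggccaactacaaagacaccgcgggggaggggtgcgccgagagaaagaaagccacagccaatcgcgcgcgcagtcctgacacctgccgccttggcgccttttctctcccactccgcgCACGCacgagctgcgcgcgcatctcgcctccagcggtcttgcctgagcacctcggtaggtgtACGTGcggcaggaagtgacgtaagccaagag

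Fth1, the ferritin chain with ferroxidase activity (chromosome 1, in a span from 225906509 to 226154149 that also covers Best1, Fads2, Fads3, Incenp and Rab3il1), was at 1052, 2356, 1563 and 1144 CPM in CF libraries 0 to 3. In WT libraries 0 to 3 it was at 1430, 1763, 2282 and 2752 CPM. The groups overlapped over most of their range, and the log2 fold change was −0.43 (SE 0.28, edgeR adjusted p = 0.506), and −0.0692 without CF libraries 0 and 3. The chromosome 1 light-chain locus was at 249.9 to 309 CPM in CF gut and 204 to 299.5 CPM in WT gut (log2 fold change 0.135, SE 0.14, edgeR adjusted p = 0.699). The chromosome 5 Ftl1 locus was at 1.69, 1.64, 1.92 and 2.24 CPM in CF libraries 0 to 3, against 1.46, 1.56, 1.26 and 0.887 CPM in WT libraries 0 to 3. The CPM values of the groups lay under 0.1 CPM apart, its FPKM values did overlap, and its log2 fold change of 0.53 (SE 0.25, adjusted p = 0.353) rests on 12.8 to 45.0 fragments per library.

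The balance of uptake receptor to store did not separate the groups. The FPKM ratio of Tfrc to Fth1 was 0.0320, 0.0109, 0.0174 and 0.0462 in CF libraries 0 to 3 and 0.0163, 0.0168, 0.00968 and 0.0113 in WT libraries 0 to 3 (exact permutation p = 0.171, two-sided, and 0.171 after adjustment). The ratio of heavy to light chain, with the chromosome 1 locus as the light chain, was 2.001, 5.13, 3.52 and 2.26 in CF libraries 0 to 3 and 2.63, 5.59, 5.33 and 5.35 in WT libraries 0 to 3 (exact permutation p = 0.171). With the chromosome 5 locus named Ftl1, the mean log2 ratio was 9.96 ± 0.785 in CF and 10.96 ± 0.750 in WT (exact permutation p = 0.114, 0.171 after adjustment). CF libraries 0 and 3 had the lowest heavy-to-light ratios and the highest Tfrc-to-Fth1 ratios with either light-chain locus.

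Hmox1, the heme oxygenase that releases iron from heme (chromosome 19, 14508615 to 14515456), was the most variable member. It was at 46.8, 26.6, 22.9 and 16.7 CPM in CF libraries 0 to 3 and at 10.2, 19.7, 45.4 and 36.4 CPM in WT libraries 0 to 3. Both groups covered nearly the same range, and the 95% interval of the log2 fold change, −1.11 to 1.14, lay widely on both sides of 0. Ireb2, which encodes iron regulatory protein 2 (chromosome 8, 59420122 to 59501118), had the narrowest range over the 8 libraries, at 53.2 to 61.8 CPM in CF gut and 55.4 to 66.3 CPM in WT gut. Its log2 fold change was −0.02, with a 95% interval of −0.23 to 0.19. Epas1, which encodes HIF-2 alpha (chromosome 6, 10306404 to 10387266), was at 187, 116, 95.8 and 161 CPM in CF libraries 0 to 3 and at 148, 133, 146 and 119 CPM in WT libraries 0 to 3. CF libraries held both the highest and the lowest Epas1 values, with a log2 fold change of 0.03 (95% interval −0.39 to 0.46). HIF-2 alpha and iron regulatory protein 2 are controlled mainly through protein stability, which mRNA levels do not measure.

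Markers of the cell types in the tissue differed between libraries. In whole tissue, fewer cells of a type and less RNA per cell cannot be told apart. The summed CPM of 11 enterocyte markers ran from 10682 in CF library 0 to 32070.0 in CF library 1, with CF libraries 2 and 3 at 21708 and 23523 and WT libraries at 16720.5 to 29840.0, and no enterocyte marker was at 0. CF library 0 also had the lowest Slc40a1, Heph, Fth1 and Ireb2, and CF library 1 the highest Slc40a1 and Heph of all libraries. In WT, Fth1 did not follow the enterocyte sum. It was at 1430 CPM in WT library 0, where the sum was 26492, and at 2282 CPM in WT library 2, where the sum was 16720.5. Tfrc, Hmox1 and Epas1 were highest of all in CF library 0, and Slc11a2 was second highest there. Endothelial markers, 7 of them, summed to 116 to 176 CPM in CF gut and 152 to 199.5 CPM in WT gut. All 7 had lower means in CF. Of these, 5 were under an unadjusted p of 0.05 by edgeR, beside 7.21% of all loci with lower values in CF. Groups did not overlap in 2 of them, beside 3.91% of all loci with lower values in CF. Macrophage markers, which mark cells that recycle iron through Hmox1 and ferroportin, summed to 957 to 985 CPM in CF gut and 909 to 1624 CPM in WT gut, with 1 of 10 (Marco) at 0 in every library. Most of this sum was Lyz2, at a mean of 718 CPM in CF gut and 1058 CPM in WT gut. Of the 9 tested, 4 had higher and 5 lower means in CF. The 3 under an unadjusted p of 0.05 by edgeR were all lower, beside 7.21% of all loci. The 5 red cell markers summed to 90.5 to 124 CPM in CF gut and 152 to 352 CPM in WT gut. All 4 tested had lower means in CF, groups that did not overlap and an unadjusted p under 0.05 by edgeR. Of all loci, 3.91% did not overlap with lower values in CF, and 7.21% were under that p with lower values. After adjustment 1 of the 4 was called, beside 0.0295% of all loci with lower values in CF. The 4 smooth muscle markers summed to 4660 to 6218 CPM in CF gut and 2807 to 4195 CPM in WT gut, so the sum in every CF library was above that in every WT library, as for Slc11a2. All 4 had higher means in CF, beside 49.2% of all loci. By edgeR 2 of them were under an unadjusted p of 0.05, beside 7.94% of all loci with higher values in CF. Singly, Des and Cnn1 did not overlap between the groups, beside 4.86% of all loci with higher values in CF. Acta2 did, at 826 to 935 CPM in CF gut and 561 to 942 CPM in WT gut. Myh11 also did, at 1665 to 2516 CPM in CF gut and 1301 to 2102 CPM in WT gut. The 7 goblet cell markers summed to 7294 to 10959 CPM in CF gut and 4588 to 9104 CPM in WT gut. Means were higher in CF for 6 of them, beside 49.2% of all loci. Groups did not overlap in 3, all higher in CF, beside 4.86% of all loci. The part of these cell types in the members' values was not tested.

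**Figure D5:**
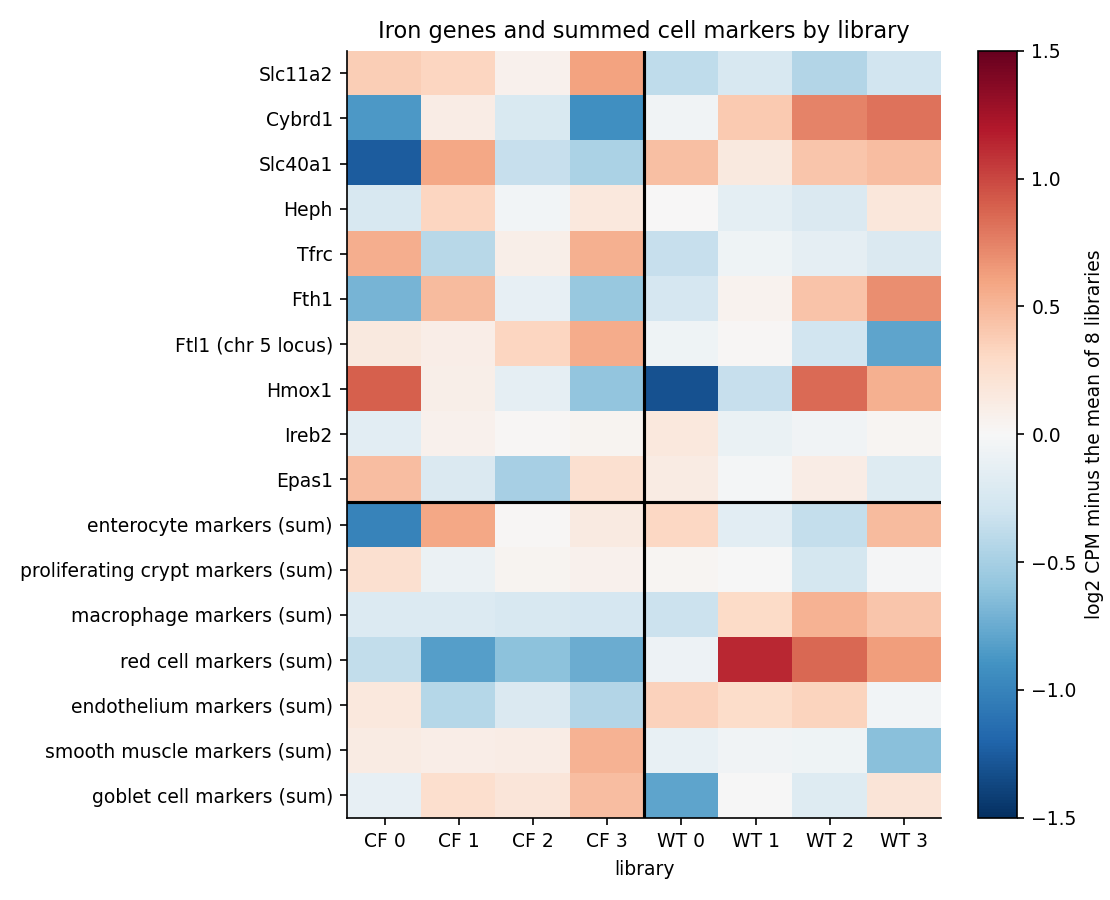
Log2 CPM of each of the 10 genes, and of the summed markers of 7 cell types, as the difference from the mean of the 8 libraries (CF libraries left, WT libraries right; red above the mean, blue below, colours saturating at 1.5). Enterocyte markers are lowest in CF library 0 and highest in CF library 1, and Slc11a2 is above its mean in all 4 CF libraries.

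Further genes of iron handling were measured from lists drawn up by function. Of 15 tested genes for other transport, reduction and binding of iron, none passed at an adjusted p of 0.05 by edgeR, 11 had higher means in CF (49.2% of all loci did), 2 were under an unadjusted p of 0.05 (15.1% of all loci were), and the median log2 fold change was 0.14. Lcn2, lipocalin 2, which sequesters bacterial iron carriers, was at 391.6, 31.1, 16.02 and 269 CPM in CF libraries 0 to 3 and at 33.9, 24.9, 26.5 and 9.97 CPM in WT libraries 0 to 3 (log2 fold change 2.89, SE 1.03, adjusted p = 0.263). Its 2 high values are in CF libraries 0 and 3, and without both libraries the log2 fold change was −0.02. The metalloreductase gene Steap4 showed the same 2 libraries high, at 4.34 and 4.49 CPM, against 0.546 to 1.77 CPM in WT. The copper importer gene Slc31a1 was at 171 ± 54.1 CPM in CF gut and 169 ± 25.4 CPM in WT gut.

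Of 19 genes of heme handling none passed, and 9 had higher and 10 lower means in CF, beside 49.2% of all loci with higher means. By edgeR 3 were under an unadjusted p of 0.05, beside 15.1% of all loci. Of these, 2 were higher and 1 was lower in CF, beside 7.94% and 7.21% of all loci. The median log2 fold change was −0.06. Alas1, the first enzyme of heme synthesis outside red cells, was at 184 ± 40.2 CPM in CF gut and 135 ± 14.0 CPM in WT gut (log2 fold change 0.45, SE 0.16, edgeR adjusted p = 0.233, and 0.0482 with no low-count filter). Blvrb, a biliverdin reductase gene, was at 17.2 ± 1.48 CPM in CF gut and 13.3 ± 2.301 CPM in WT gut (log2 fold change 0.38). The exporter gene Abcg2, which moves porphyrins among other substrates, was at 205 ± 74.1 CPM in CF gut and 149 ± 15.99 CPM in WT gut (log2 fold change 0.46, edgeR adjusted p = 0.432), and without CF library 0 it was past the threshold (log2 fold change 0.68, adjusted p = 0.0483). Of 12 mitochondrial iron and iron-sulphur genes none passed by edgeR, none was under an unadjusted p of 0.05, and the median log2 fold change was 0.04. Iscu, the scaffold on which iron-sulphur clusters are built, Glrx5, which passes them on, and the ferredoxin gene Fdx1 had log2 fold changes of −0.11, 0.20 and 0.25.

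Of 9 regulators of iron and oxygen sensing 6 had higher and 3 lower means in CF, beside 49.2% of all loci with higher means. By edgeR 3 were under an unadjusted p of 0.05, all with higher means in CF (7.94% of all loci were so). None passed after adjustment, and the median log2 fold change was 0.2. Hif1a, the HIF-1 alpha gene, was at 137, 91.7, 87.7 and 119 CPM in CF libraries 0 to 3, against 80.4, 75.9, 67.2 and 71.9 CPM in WT libraries 0 to 3 (log2 fold change 0.56, SE 0.15, edgeR adjusted p = 0.140). Every CF library was above every WT library, and without CF libraries 0 and 3 the log2 fold change was 0.28. Egln3, a prolyl hydroxylase that marks HIF for destruction and is itself hypoxia-induced, had a log2 fold change of 0.37 (adjusted p = 0.233). Aco1, the gene of iron regulatory protein 1, and Fbxl5, the iron-sensing adaptor that removes iron regulatory protein 2, had log2 fold changes of −0.19 and 0.17.

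Of 14 hypoxia-inducible genes 8 had higher and 6 lower means in CF, beside 49.2% of all loci with higher means. By edgeR 4 were under an unadjusted p of 0.05, all with higher means in CF, beside 7.94% of all loci. None passed after adjustment, and the median log2 fold change was 0.06. Slc2a1, the glucose transporter GLUT1, was at 46.6, 28.3, 28.6 and 39.0 CPM in CF libraries 0 to 3, against 18.0, 23.1, 19.2 and 18.4 CPM in WT libraries 0 to 3 (log2 fold change 0.86, SE 0.17, edgeR adjusted p = 0.0756). Without CF libraries 0 and 3 its log2 fold change was 0.53. Car9, a carbonic anhydrase gene, was at 21.9 ± 8.03 CPM in CF gut and 9.96 ± 2.69 CPM in WT gut (log2 fold change 1.13, SE 0.31, edgeR adjusted p = 0.162), and without CF library 0 it was past the threshold (log2 fold change 1.37, adjusted p = 0.0255). The glycolysis genes Pgk1 and Ldha had log2 fold changes of 0.33 and −0.03.

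The NRF2 and BACH1 axis also controls Hmox1 and the ferritins. Of its 13 genes 9 had higher and 4 lower means in CF, beside 49.2% of all loci with higher means. By edgeR 6 were under an unadjusted p of 0.05, all with higher means in CF, where 7.94% of all loci were. None passed after adjustment, and the median log2 fold change was 0.22. Srxn1, the sulfiredoxin gene, was at 51.3, 67.9, 46.6 and 47.7 CPM in CF libraries 0 to 3, against 28.2, 21.1, 31.8 and 29.1 CPM in WT libraries 0 to 3 (log2 fold change 0.95, SE 0.16, edgeR adjusted p = 0.0538). It was past the threshold with DESeq2 (3.50e-05), with no low-count filter (2.40e-07) and without CF library 0 (0.0382) or 2 (0.0451). Txnrd1, Gpx4 and Gsr, genes of thiol and lipid peroxide reduction, had log2 fold changes of 0.34, 0.63 and 0.12. Hmox1 itself, at 28.2 ± 13.0 CPM in CF gut and 27.9 ± 15.9 CPM in WT gut, showed no such difference beyond its spread. Called by DESeq2 among the genes named from these lists were Hif1a (0.0238), Car9 (0.0130), Slc2a1 (0.000997) and Srxn1. With no low-count filter Hif1a (0.00393) and Slc2a1 (1.16e-05) also passed in edgeR.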

How the data were processed

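The authors deposited Cuffdiff tables. The submitters' processing notes name Rnor_6.0, Cuffdiff, StringTie, STAR 2.3.1z, cutadapt and bcl2fastq. The sources used here do not give the settings or order. Deposited values per locus include estimated counts of fragments, 5.99% of them fractional, which were rounded. The FPKM values were made by the authors after scaling between libraries, per the file headers, and mix transcript lengths within a locus. 2 further columns per library were not used. Coordinates are the table's own, and RefSeq (GRCr8) gave sequences and names only.

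Loci were filtered with filterByExpr (minimum count 10, minimum total 15), scaled by TMM and tested in edgeR by robust quasi-likelihood, adjusted by Benjamini-Hochberg at a threshold of 0.05. The code was tested on simulated data. SE is the fold change over the root of F. Software was DESeq2 1.42.0, limma 3.58.1 and edgeR 4.0.16 in R 4.3.3, and matplotlib 3.10.9, scipy 1.17.1 and pandas 2.3.3 in Python 3.11.15. The table's libraries are numbered 0 to 3 and the titles 1 to 4, so each library's group is known but not its title.

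The members and lists were chosen with earlier results of these data known. From each of the 6 pathway lists the text names any called gene, the 2 highest in FPKM and the 2 lowest in p; 1 gene is not reported here and was left out of its list's counts. Alternatives changed the scaling, filter, test, unit and libraries.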

Additional observations from a re-analysis of the deposited data

Results flagged for a closer look

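In 72 groups of 4 libraries examined (each named gene and ratio in each condition), 1 held a library far from the other 3, where chance flags about 1 in 20. The log2 FPKM ratio of Fth1 to the chromosome 1 light-chain locus was 1.40 in WT library 0, and WT libraries 1 to 3 were at 2.41 to 2.48.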

How the results depend on the processing

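Loci called over the whole table numbered 28, and 553 with no low-count filter, 619 with DESeq2, 17 with limma-voom, 12 on log2(FPKM + 1), 15 on log2(FPKM + 0.1), 5 to 136 with 1 library left out and 47 without CF libraries 0 and 3, a choice made after seeing the data. Of the 10 iron genes none was called with all libraries, 1 with no low-count filter, 2 with DESeq2 and 0 to 1 with 1 library left out. Log2 fold changes of 5 genes near 0, of Iscu at −0.11 and of Lcn2 at 2.89 changed sign, and the cause was not tested. With 1 library left out, Hmox1 ranged from −0.34 to 0.35, Ireb2 from −0.0566 to 0.0317, Epas1 from −0.13 to 0.18, Slc31a1 from −0.155 to 0.21 and Ldha from −0.155 to 0.129. Without CF libraries 0 and 3, Hmox1 was at −0.17, Ireb2 at 0.0268, Epas1 at −0.36, Lcn2 at −0.0209, Iscu at 0.0204 and Ldha at 0.146. With no filter, Ireb2 was at 0.0159 and Ldha at 0.00263. With limma-voom, Epas1 was at −0.00995 and Slc31a1 at −0.0297. On log2(FPKM + 1), Epas1 was at −0.0489 and Slc31a1 at −0.0473. On log2(FPKM + 0.1), Epas1 was at −0.0520 and Slc31a1 at −0.0481. The library numbers did not pair the libraries, with correlations of deviations of 0.065, −0.106, 0.163 and −0.008. With the number as a replicate block 11 loci and 0 iron genes were called, Epas1 was at −0.00751 and Slc31a1 at −0.0262, and the paired exact test of the import to export ratio gave p = 0.125, the smallest that 4 pairs allow. With 1 library left out the exact tests of ratios cannot go below 0.0571.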

Other observations

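Further genes of the lists, picked after their values were seen, had CF libraries 0 and 3 above the other 6, as Lcn2 and Steap4 did. Hif3a, a member of the HIF alpha family, was at 81.2, 17.6, 6.54 and 75.95 CPM in CF libraries 0 to 3, against 5.39 to 18.6 CPM in WT. The peptide hormone gene Adm was at 16.4, 2.48, 1.97 and 8.23 CPM in CF libraries 0 to 3, against 2.33 to 2.94 CPM in WT. The cystine transporter gene Slc7a11, an NRF2 target, was at 16.1, 7.11, 5.59 and 17.5 CPM in CF libraries 0 to 3, against 4.37 to 8.10 CPM in WT. Cd163, the macrophage receptor for haptoglobin-bound hemoglobin, was at 34.1, 11.001, 6.49 and 31.2 CPM in CF libraries 0 to 3, against 8.74 to 15.7 CPM in WT. Mrc1 and Cd14 from the macrophage list also had CF libraries 0 and 3 highest, while Csf1r, C1qa, C1qb, Adgre1 and Lyz2 had lower means in CF. Of the 9 macrophage markers tested, 4 had higher and 5 had lower means in CF. The folate and heme transporter gene Slc46a1 had another order, at 33.2, 174, 83.2 and 85.2 CPM in CF libraries 0 to 3 and 87.2 to 130 CPM in WT, with CF library 0 lowest and CF library 1 highest, as for the enterocyte markers.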
